A study of Mus musculus with 9 samples.

Results

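The genes described here are the globins of the red blood cell, Alas2, which starts haem synthesis in that cell, and myoglobin (Mb), the globin of the muscle fibre. They were taken by gene symbol from a listed set, and 9 of the 55471 genes in the count table make up the group: Hba-a1, Hba-a2, Hba-x, Hbb-bs, Hbb-bt, Hbb-y, Hbb-bh1, Alas2 and Mb. They were chosen by name, with the counts of these libraries in view, and above all the high globin counts of mouse KO1. The departure of KO1 is therefore given as a description, without a test.

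The libraries are RNA sequencing of gastrocnemius, a calf muscle, from newborn mice at postnatal day 0 to 1 with the strain labelled C57BL/6. There were 5 Shank3Δ11(-/-) mice (KO1 to KO5), in which exon 11 of both Shank3 copies is deleted, and 4 Shank3(+/+) mice (WT1 to WT4). The Shank3Δ11(-/-) mice came from matings of heterozygous C57BL/6JRj animals, no treatment is named, and the methods name no step that removed blood from the muscle. Each library is 1 mouse. The study left KO2 and KO4 out of its comparison for insufficient reads, and the genotype comparison below follows this choice (3 Shank3Δ11(-/-) mice, KO1, KO3 and KO5, and the 4 Shank3(+/+) mice) and gives the values of all 9 mice beside it.

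Total counts lay between 26444372 and 40471957 per mouse, with KO2 at 28211941 and KO4, the deepest, at 40471957. Shank3 itself was present in both genotypes, at 25.7 to 35.0 counts per 1e6 counts (CPM) in Shank3Δ11(-/-) and 32.4 to 38.5 CPM in Shank3(+/+) mice. Its log2 fold change was -0.12 (SE 0.11, adjusted p = 1.00, edgeR quasi-likelihood test), so that the count of the whole gene does not check the deletion of 1 exon. The muscle label was met in every library: 8 of 8 muscle identity markers were measured, their sum lay between 47883 and 55801 CPM, and Acta1, the actin of the skeletal muscle fibre, had 17417 to 21201 CPM. Genes on the Y chromosome had at least 190 CPM in sum in KO1, KO2, KO4, WT1 and WT2 and at most 0.423 CPM in KO3, KO5, WT3 and WT4. Samples stand apart in other ways that are given where they touch a result.

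Haemoglobin is a tetramer of alpha-like and beta-like globin chains, each carrying a haem group that binds oxygen. The mouse uses zeta globin (Hba-x), epsilon-y globin (Hbb-y) and beta-h1 globin (Hbb-bh1) in the primitive red cells of the embryo, and changes to the adult alpha (Hba-a1, Hba-a2) and beta (Hbb-bs, Hbb-bt) chains in the definitive red cells of foetal liver and bone marrow. Young red cells lose their nucleus and still hold globin mRNA for some time, so that globin transcripts in whole muscle can come from the blood in its vessels. Myoglobin binds oxygen inside the muscle fibre and is most abundant in oxidative fibres.

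The adult genes come in near-identical pairs, and this bears on every value of a single copy. The coding sequences of Hba-a1 and Hba-a2, both 429 bases long in the GENCODE M21 annotation of the mm10 (GRCm38) genome, differed at 1 base. This is C381T, counted from the first base of the start codon, with the base of Hba-a1 first and that of Hba-a2 last. Those of Hbb-bs and Hbb-bt, 444 bases long, also differed at 1 base, C417T, with the base of Hbb-bs first. The stretches around these bases are shown because they hold the whole coding difference within each pair, with the base that differs in capitals. They lie in exons, at chr11:32284323-32284363 for Hba-a1, chr11:32297140-32297180 for Hba-a2 (both on the plus strand), chr7:103826672-103826712 for Hbb-bs and chr7:103812663-103812703 for Hbb-bt (both on the minus strand).
Hba-a1: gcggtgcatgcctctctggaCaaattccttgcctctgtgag
Hba-a2: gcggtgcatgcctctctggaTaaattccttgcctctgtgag
Hbb-bs: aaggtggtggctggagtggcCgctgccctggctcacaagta
Hbb-bt: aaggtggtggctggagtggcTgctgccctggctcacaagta

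Of the 600 stretches of 100 bases in the first Hba-a1 transcript, 339 (56.5%) are also in that of Hba-a2. Of the 529 such stretches in Hbb-bs, 331 (62.6%) are also in Hbb-bt. A read within such a stretch cannot be placed on 1 copy by its letters, so the split between the 2 copies of a pair is uncertain and the sum of the pair is the firmer value. No stretch of 50 bases was shared between Hba-a1 and Hba-x, between Hbb-bs and Hbb-y or Hbb-bh1, or between Hbb-y and Hbb-bh1. Hba-x had 62.0% of its coding bases in common with Hba-a1, and Hbb-y and Hbb-bh1 had 74.3% and 74.1% in common with Hbb-bs. The first 90 coding bases are shown because they make plain how far the embryonic genes are from the adult ones, which is what keeps their counts apart. Capitals mark bases that differ from the first sequence of each family. The intervals are chr11:32283707-32283796 (Hba-a1), chr11:32276664-32276753 (Hba-x), chr7:103827786-103827875 (Hbb-bs), chr7:103853063-103853152 (Hbb-y) and chr7:103843021-103843110 (Hbb-bh1), all within the first coding exon.
Hba-a1: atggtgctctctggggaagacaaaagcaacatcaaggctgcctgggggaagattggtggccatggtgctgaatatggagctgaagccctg
Hba-x: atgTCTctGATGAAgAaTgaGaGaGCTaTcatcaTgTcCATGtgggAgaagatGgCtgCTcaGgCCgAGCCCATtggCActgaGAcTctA
Hbb-bs: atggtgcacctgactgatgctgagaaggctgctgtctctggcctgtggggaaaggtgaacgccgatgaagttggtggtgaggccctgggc
Hbb-y: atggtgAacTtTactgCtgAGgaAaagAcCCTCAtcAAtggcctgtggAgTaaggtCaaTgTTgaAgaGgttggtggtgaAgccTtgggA
Hbb-bh1: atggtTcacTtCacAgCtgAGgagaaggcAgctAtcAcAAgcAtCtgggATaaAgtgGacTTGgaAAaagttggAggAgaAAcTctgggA

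The globins of these muscles were almost wholly the adult ones. Over all 9 mice, Hba-x made up 107 of 317204 alpha-like globin counts, or 0.0337% (95% exact binomial interval 0.0276 to 0.0408%). Hbb-y and Hbb-bh1 together made up 26 of 296049 beta-like globin counts, or 0.00878% (0.00574 to 0.0129%). These intervals cover counting error only, since reads copied by PCR are not independent molecules.

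Hba-x, zeta globin, had 83 counts in KO1 and 12 in WT1. In the other mice it had 1 in KO2, 4 in KO3, 2 in KO4, 0 in KO5, 1 in WT2, 1 in WT3 and 3 in WT4. As a share of alpha-like counts this was 0.0889% in KO1 (95% exact interval 0.0708 to 0.110%) and 0.0453% in WT1 (0.0234 to 0.0790%), and the intervals of these 2 mice overlap. The other 7 mice lay between 0 and 0.0109%, the upper bounds of their intervals reached at most 0.0286%, and the exact upper bound for KO5, with 0 of 16797 alpha-like counts, was 0.0220% (0.0179% if a count of 0 is taken to allow 3).

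Hbb-y, epsilon-y globin, had 2 counts in KO1, 0 in KO2, 1 each in KO3, KO4 and KO5, 0 in WT1 and 4 each in WT2, WT3 and WT4. Hbb-bh1, beta-h1 globin, had 8 counts in KO1, 1 in KO3 and 0 in the 7 others. The beta-like embryonic share was 0.0111% in KO1 (0.00534 to 0.0205%), inside the range of the other 8 mice, 0 to 0.0192%. KO1 was thus above all 8 other mice in its alpha-like embryonic share, with WT1 nearest to it and their intervals overlapping. In its beta-like share KO1 lay among the others. Within the beta-like family its counts fell mostly on Hbb-bh1 while those of WT2 to WT4 fell on Hbb-y.

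The mean alpha-like embryonic share was 0.0333% ± 0.0485 (SD, n = 3) in KO1, KO3 and KO5 and 0.0156% ± 0.0199 (SD, n = 4) in Shank3(+/+) mice. Without KO1 the first mean was 0.00544%, and without WT1 the second was 0.00572%. The beta-like share was 0.00796% ± 0.00275 (SD, n = 3) and 0.0121% ± 0.00834 (SD, n = 4). Each pair of means lies within the spread of the mice. With so few counts none of the 3 embryonic genes passed the filter on low counts in this comparison, so they were not tested in it.

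**Figure D1:**
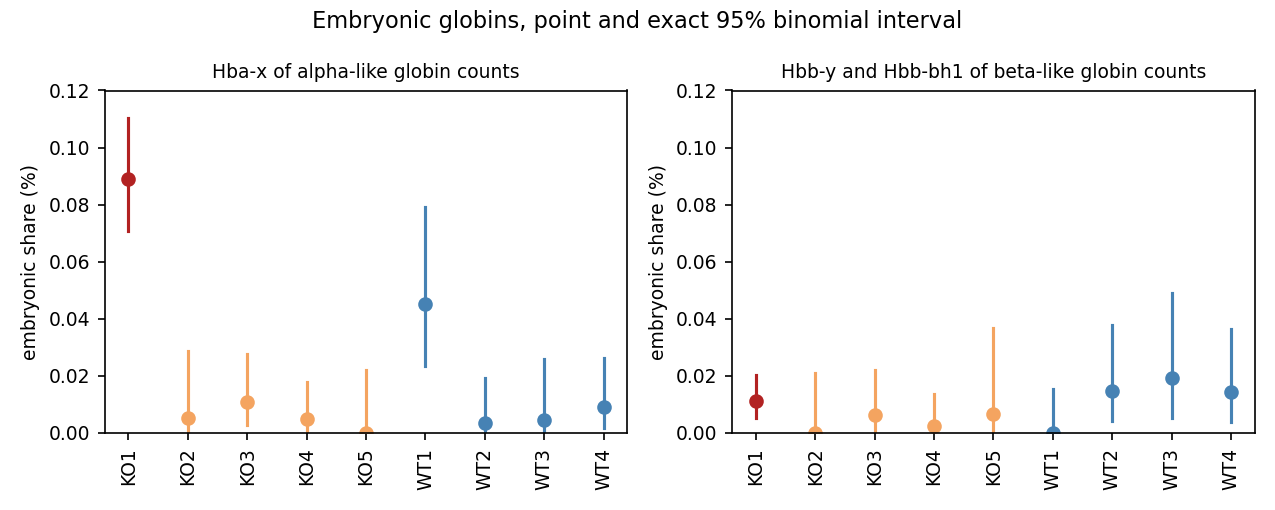
The share of embryonic transcripts (percent, vertical axis) among alpha-like globin counts (left) and beta-like globin counts (right) in each mouse, as a point with its exact 95% binomial interval, with KO1 in dark red, the other Shank3Δ11(-/-) mice in orange and Shank3(+/+) mice in blue. On the left KO1 lies at 0.0889% and WT1 at 0.0453% above the other 7 mice, whereas on the right KO1 at 0.0111% lies among the others.

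The adult globins took 0.121 to 0.217% of all counts, embryonic counts included, in 8 of the 9 mice and 0.565% in KO1. Their level per mouse is given in CPM scaled by TMM factors, which correct for library composition. Levels of different genes are compared per length only, as transcripts per 1e6 transcripts (TPM).

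Hba-a1, an adult alpha globin (chr11:32283511-32284465), had 1501 CPM in KO1, 342 in KO2, 597 in KO3, 554 in KO4 and 329 in KO5. In the Shank3(+/+) mice it had 423, 440, 377 and 558 CPM. Of the Shank3Δ11(-/-) mice 2 lay above every Shank3(+/+) mouse and 2 below every one of them, so the genotypes overlap on both sides. Its copy Hba-a2 (chr11:32296489-32297298) had 1418, 319, 560, 515 and 309 CPM in KO1 to KO5 and 392, 411, 358 and 522 CPM in WT1 to WT4, with the mice in the order of Hba-a1. Hba-a1 held 51.3 to 51.9% of the counts of the pair in every mouse.

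Hbb-bs (chr7:103826534-103828096), an adult beta globin, had 1822 CPM in KO1, 383 in KO2, 676 in KO3, 707 in KO4 and 361 in KO5. In WT1 to WT4 it had 479, 527, 455 and 565 CPM. KO1, KO3 and KO4 lay above all Shank3(+/+) mice, and KO2 and KO5 lay below all of them. Hbb-bt (chr7:103812524-103813996), the other adult beta globin, had 990, 211, 348, 370 and 213 CPM in KO1 to KO5 and 263, 270, 255 and 349 CPM in WT1 to WT4. Hbb-bt held 33.9 to 38.1% of the counts of its pair, with KO1 at 35.2%, near the median of the other 8 mice, 35.5%. The alpha-like genes held 49.8 to 54.1% of all globin counts, with KO1 at 51.0%. The proportions between the chains in KO1 were thus those of the other mice, although the counts of each chain were higher.

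Alas2, the red-cell form of 5-aminolevulinate synthase and the first enzyme of haem synthesis (chrX:150547375-150570638), had 40.0 CPM in KO1. The other Shank3Δ11(-/-) mice had 11.6 (KO2), 12.1 (KO3), 12.7 (KO4) and 10.7 CPM (KO5), and the Shank3(+/+) mice had 12.3, 11.4, 8.05 and 11.8 CPM. Outside KO1 the highest value was 1.58 times the lowest, a narrower spread than that of the adult globins, for which this ratio was 1.75 to 1.96. Relative to the globins, Alas2 stood at 0.698% of the globin CPM in KO1 and at 0.554 to 0.927% in the other 8 mice. Alas2 shares 311 of its 2403 exon bases with Apex2, a gene for a DNA repair enzyme on the opposite strand, and no source used here says whether the counting used strand, so that reads from this stretch cannot be told apart.

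Set against the median of the other 8 mice, KO1 was 3.48-fold higher in Hba-a1, 3.53-fold in Hba-a2, 3.62-fold in Hbb-bs, 3.71-fold in Hbb-bt and 3.42-fold in Alas2. Against the highest other mouse it was 2.51-fold to 2.68-fold higher in the adult globins and 3.16-fold in Alas2. These 5 genes were high together in 1 mouse by nearly the same factor, and this is what the group was chosen for. In Mb, by contrast, KO1 was the lowest of the 9 mice, as it was in 9.34% of all genes.

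**Figure D2:**
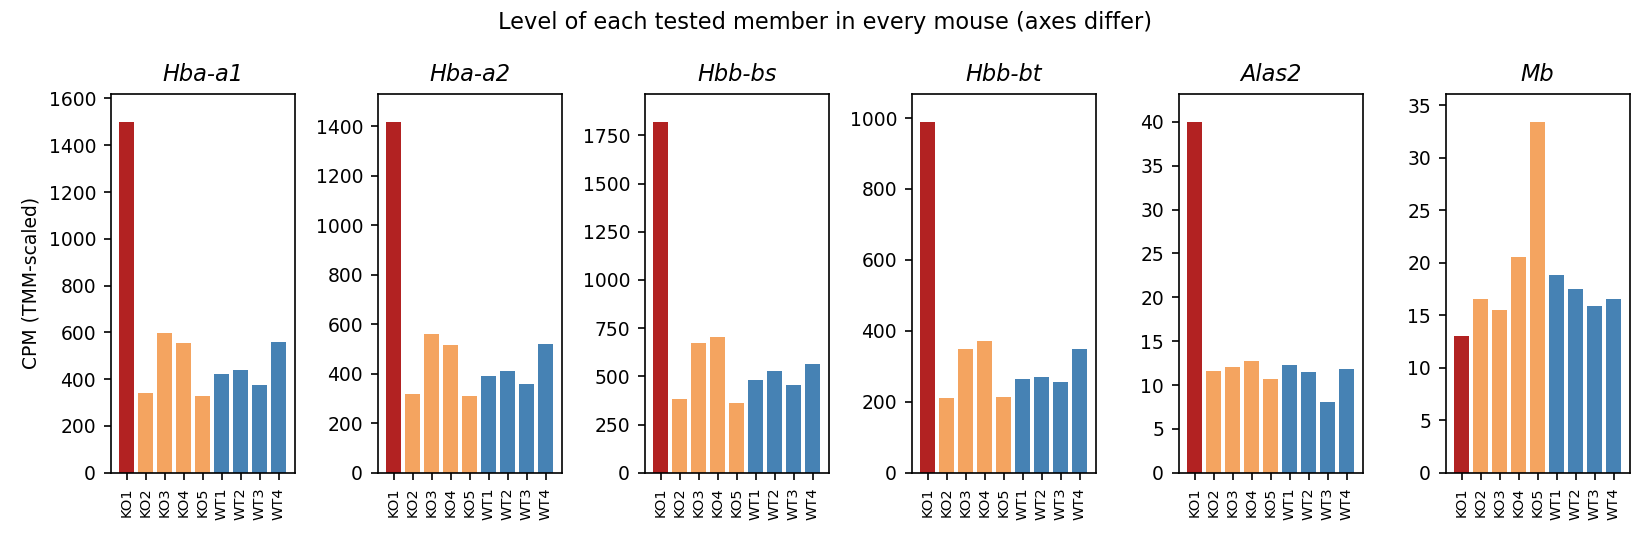
TMM-scaled CPM (vertical axes, each from 0 and with its own range) of the 6 genes that passed the filter on low counts, 1 bar for each of the 9 mice, with KO1 in dark red, KO2 to KO5 in orange and WT1 to WT4 in blue. KO1 stands above all other mice in the 4 adult globins and in Alas2 (40.0 against at most 12.7 CPM), whereas Mb is lowest in KO1 and highest in KO5 at 33.5 CPM.

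Per length, the order of the medians over the 9 mice was Hbb-bs (1474 TPM), Hba-a2 (1390), Hba-a1 (1232), Hbb-bt (885), Mb (24.97) and Alas2 (10.5). Hbb-bs was above Hba-a2 in 8 of 9 mice, and the range of each of the 4 adult globins over mice overlaps that of its neighbour. The adult globins and Mb did not overlap: the lowest Hbb-bt value was 636 TPM and the highest Mb value 47.0 TPM. Mb was above Alas2 in 8 of 9 mice, the exception being a mouse whose Alas2 reached 36.2 TPM, which is KO1. The 3 embryonic genes were at most 6.02 TPM (Hba-x in KO1), with medians of 0.126 TPM for Hbb-y, 0.106 for Hba-x and 0 for Hbb-bh1.

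Between the genotypes, 0 of the 6 tested genes had p below 0.05. In the comparison of KO1, KO3 and KO5 with the Shank3(+/+) mice, 0 of 21809 genes (0.0%) met the criteria taken from the study (p below 0.05 and a false discovery rate below 25%) in the edgeR quasi-likelihood test. At p below 0.05 there were 453 genes (2.08%), 253 higher (1.16%) and 200 lower (0.917%) in Shank3Δ11(-/-) mice. On the same mice DESeq2 called 6 genes and limma-voom 0, none of them a globin, Alas2 or Mb. The paper, which used limma, reports differentially expressed genes at these criteria, unlike the edgeR and limma-voom fits here. Genes whose groups did not overlap made up 2.83% of those tested, and no gene of the 6 was among them.

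The mean of Alas2 over KO1, KO3 and KO5 was 20.9 ± 16.5 CPM (SD, n = 3). Over the Shank3(+/+) mice it was 10.9 ± 1.92 CPM (SD, n = 4). Its log2 fold change was 0.94 (SE 0.45, p = 0.0711, adjusted p = 1.00, edgeR), and the exact two-sided permutation test over mice gave p = 0.257, where 0.0286 is the smallest value this design allows. For Hbb-bs these means were 953 ± 769 CPM (SD, n = 3) and, in the second group, 507 ± 49.3 CPM (SD, n = 4), with a log2 fold change of 0.90 (SE 0.48, p = 0.101 by edgeR, exact permutation p = 0.429). The other 3 adult globins had log2 fold changes of 0.84 to 0.85 with edgeR p between 0.108 and 0.114 and exact permutation p between 0.371 and 0.400. In all 5 genes the SD over KO1, KO3 and KO5 was larger than that over the Shank3(+/+) mice.

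The difference rested on KO1. Without it, the log2 fold changes were 0.06 (SE 0.19) for Alas2, 0.02 (SE 0.22) for Hbb-bs, 0.04 for Hba-a2, 0.03 for Hba-a1 and -0.03 (SE 0.21) for Hbb-bt, the last of opposite sign, and 0 of 6 genes had p below 0.05, as 4.35% of all genes did. With KO2 and KO4 added and KO1 left out they lay between 0.01 and 0.12, and the exact permutation p lay between 0.543 and 0.971. With all 9 mice they were 0.68 for Alas2 and 0.56 to 0.64 for the adult globins, and 0 of 6 genes had p below 0.05 by edgeR, as 2.03% of all genes did. Leaving out KO5, the mouse with the lowest value of 3 of the 4 adult globins, gave larger differences. KO1 is then 1 of 2 Shank3Δ11(-/-) mice in the fit, so what follows restates the counts for which the group was chosen and supports no difference between genotypes. In this fit 6 of the 7 genes tested, all but Mb, had p below 0.05, where 1.01% of all 22230 genes did, with log2 fold changes of 1.21 to 1.29 for the adult globins and Alas2 and 3.30 for Hba-x, which passed the filter through KO1 and WT1. Their adjusted p was 1.00. Leaving out KO3 put Alas2 (log2 fold change 1.21) and Hba-x (3.26) below p of 0.05 in edgeR, with 3.57% of all genes below it. Alas2 was the 1 gene below 0.05 with the Y-linked level as a covariate (2.75% of all genes) and with the replicate number as a block (3.87%), and Hbb-bh1 was the 1 gene below it without the filter on low counts (2.58%). KO1 was among the mice in each fit in which a red-cell gene of the group was below 0.05.

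**Figure D3:**
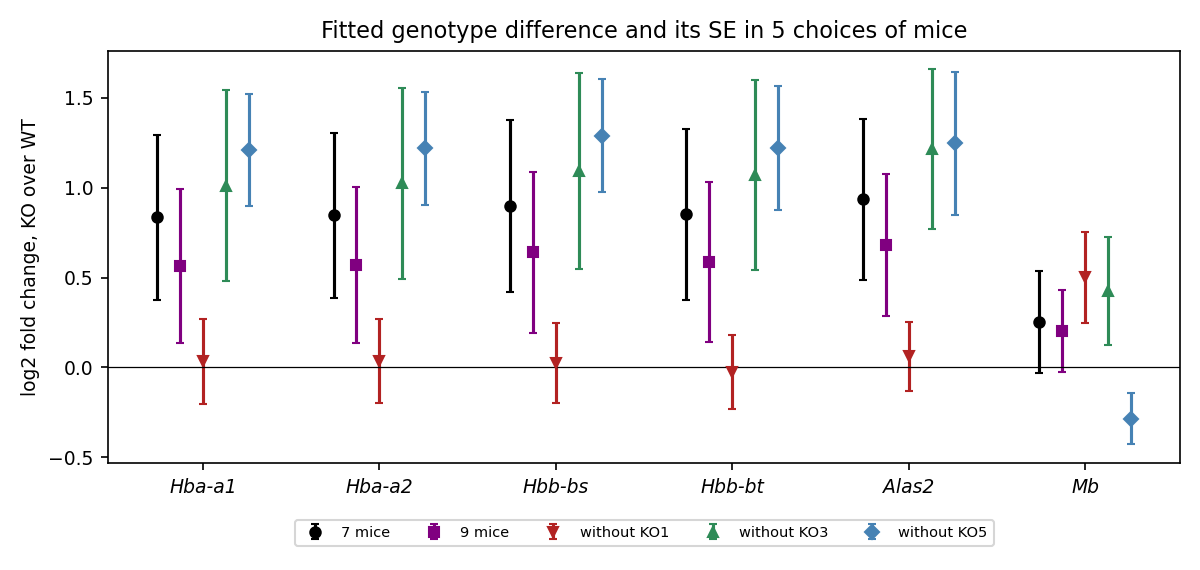
Log2 fold change of Shank3Δ11(-/-) over Shank3(+/+) mice with its SE (vertical axis) for 6 genes, fitted with the 7 mice of the comparison, with all 9 mice, and with the 7 less KO1, KO3 or KO5 (symbols). The adult globins and Alas2 lie near 0 without KO1 (0.06 for Alas2) and above 1 without KO5, whereas Mb is at -0.28 without KO5 and 0.50 without KO1.

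Other genes that mark red cells were in part higher in KO1 and in part not. A list of 29 such genes was read beside the group, of which 19 were tested between genotypes: 14 were higher and 5 lower, the median log2 fold change was 0.22, and over all genes it was -0.01. Of these 1 had p below 0.05, where 2.08% of all genes did (1.16% higher in Shank3Δ11(-/-) mice). The gene was Bpgm, the red-cell enzyme that makes bisphosphoglycerate, with a log2 fold change of 0.47 (SE 0.18, edgeR adjusted p = 1.00, exact permutation p = 0.114). Bpgm had 36.1 CPM in KO1 and 18.1 to 28.2 CPM in the other 8 mice.

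Among the 17 red cell markers tested in all 9 mice, KO1 was the highest mouse in 8, among them Slc4a1, Ermap, Trim10, Bpgm, Tfrc and Epb41, where it was highest in 9.05% of all 21735 genes. Slc4a1, the anion exchanger band 3, had 177 counts in KO1 and 23 to 76 in the others. Nuclear regulators of the red cell lineage lay within the range of the other mice: Klf1 had 6 counts in KO1 and 3 to 11 in the others, Gata1 had 13 and 1 to 13, and Nfe2 had 5 and 5 to 11. The 2 genes of the list with the highest CPM, not corrected for length, Ank1 and Sptb, which muscle also expresses, had 402 and 115 CPM in KO1, inside the range of the other mice. They carry most of the sum of the list, so that this sum, 768 CPM in KO1 and 519 to 766 CPM in the others, says little about red cells. In whole tissue, more red cells and more RNA per red cell cannot be told apart.

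Other genes of the haem pathway lay closer to the level of the other mice in KO1 than Alas2 did. Of 21 genes of haem synthesis, transport and breakdown, all tested, 14 were higher and 7 lower, none had p below 0.05, and the median log2 fold change was 0.06. KO1 was the highest mouse in 2 of the 21, near the 9.05% of all genes in which it was highest. The 2 were Fech (63.9 against 49.1 to 58.9 CPM), the enzyme that puts iron into haem, and Flvcr1 (14.2 against 6.89 to 11.8 CPM), a haem exporter. Tmem14c, a mitochondrial carrier needed for haem synthesis, had 45.3 CPM in KO1 and 38.2 to 63.1 in the others. Alas1, the form of the first enzyme that all tissues use, had 53.2 CPM in KO1 and 43.0 to 53.3 CPM elsewhere. Hmox1, the inducible enzyme that breaks haem down, had 34.6 CPM in KO1 and 17.9 to 53.4 CPM in the others, with KO5 highest. Per length, the median of Alas1 was 17.6 TPM and that of Alas2 10.5 TPM.

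Factors known to control the change from embryonic to adult globins were read next. Of 10 such genes 9 were tested, 4 were higher and 5 lower, none had p below 0.05, and the median log2 fold change was -0.01. Mbd2 and Zbtb7a, those with the highest CPM, had 59.0 and 44.5 CPM in KO1 and 47.7 to 66.2 and 33.4 to 52.0 CPM in the others. Of the remaining globins, Cygb (cytoglobin, found in fibroblast-like cells) had 23.1 CPM in KO1 and 19.6 to 32.6 in the others (log2 fold change 0.24, SE 0.15). The theta globins Hbq1a and Hbq1b had 44 and 22 counts over all mice, with 10 and 4 in KO1 and at most 11 and 6 in another mouse. Ngb, neuroglobin, had 18 counts in KO1 and 1 to 11 in the others.

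**Figure D4:**
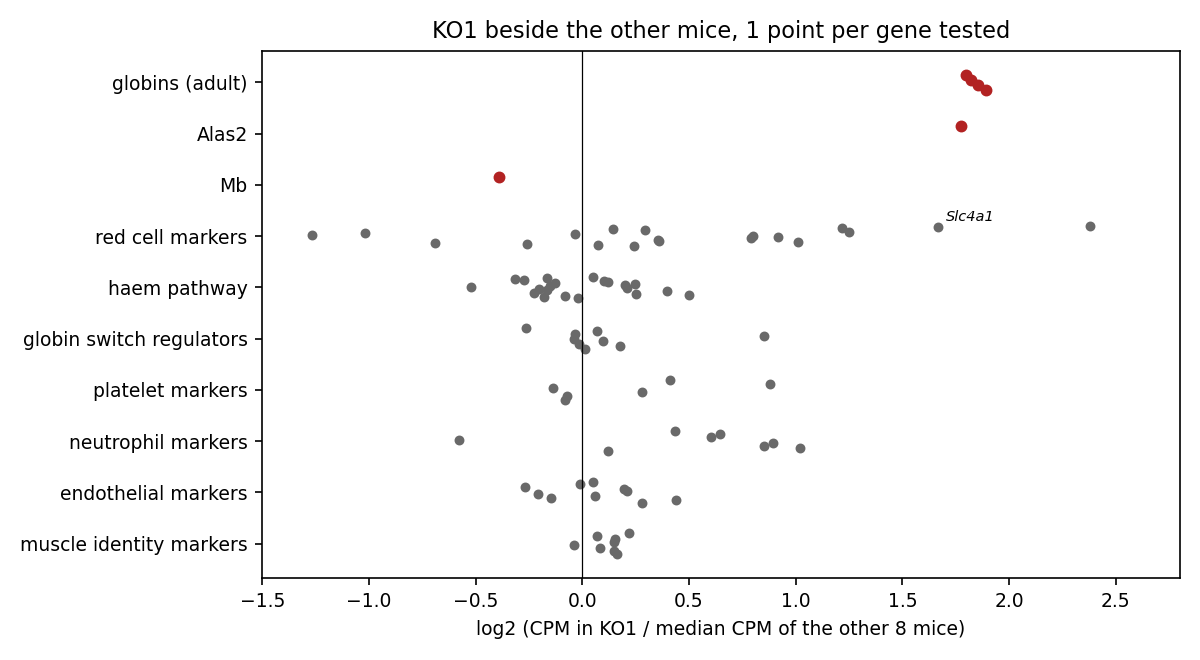
Log2 ratio of the CPM in KO1 to the median CPM of the other 8 mice (horizontal axis), 1 point for each gene tested, for the adult globins, Alas2 and Mb (red) and for lists of other genes (grey). The adult globins and Alas2 lie near the 3.4-fold to 3.7-fold level together with Slc4a1, the red cell markers as a list spread on both sides of 0, and the muscle identity markers lie close to 0.

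Markers of other blood cells and of the vessel wall were read in the same way. Of 10 platelet markers 6 were tested, 5 higher and 1 lower, none with p below 0.05. Pf4, a platelet chemokine, had 39.2 CPM in KO1, the highest value, and 21.2 to 34.4 in the others, and Itga2b, the platelet integrin, had 5.38 CPM in KO1 and 4.13 to 6.80 in the others. Of 12 neutrophil markers 8 were tested, 2 higher and 6 lower. Only Ngp, a neutrophil granule gene, had p below 0.05, where 2.08% of all genes did (0.917% lower). Ngp was lower in Shank3Δ11(-/-) mice (log2 fold change -1.38, SE 0.48, edgeR adjusted p = 1.00, exact permutation p = 0.0857). S100a8 and S100a9, those with the highest CPM, had 3.98 and 5.79 CPM in KO1, inside the range of the other mice. KO1 was the highest mouse in 2 of the 8, Ltf (1.72 CPM, others at most 1.45) and Lcn2 (2.38 CPM, others at most 1.89), where it was highest in 9.05% of all genes. The sum of the list was 18.4 CPM in KO1, with WT4 above it and the lowest mouse, KO3, at 5.72 CPM. The part of neutrophils in the values of KO1 was not tested. All 10 endothelial markers were tested and were higher, by a median of 0.11 on the log2 scale, and none had p below 0.05. Their sum was 931 CPM in KO1 and 762 to 1103 CPM in the others, and Pecam1 and Cdh5, those with the highest CPM, had 219.7 and 242.9 CPM in KO1, inside the range of the others. The part of vessel content in the globin level of KO1 was not tested.

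Some libraries held transcripts of neighbouring or other tissues. Of 9 liver markers, 1 was tested (Trf, log2 fold change 0.97, SE 0.49), since the other 8 had few counts outside WT4, where Alb, serum albumin, had 629 counts against 0 to 15 elsewhere. Adult globins in WT4 were at most 565 CPM (Hbb-bs), against 1822 CPM in KO1. KO1 had 5 counts of Alb and 1 of Afp, and the part of liver transcripts in the globin levels was not tested. Fat cell markers, a list added after the values were seen, were highest in KO5 (283 CPM in sum) and next in KO1 (25.8 CPM), and lay between 0.325 and 6.96 CPM in the other 7 mice. KO3 had 0.661 CPM, so the high sums were those of KO5 and KO1 and not of the genotype as a whole. No test between genotypes is given for a list chosen in this way. KO5 thus had the most fat cell transcripts and low adult globins, and the part of fat tissue or its vessels in the globin level of KO1 was not tested.

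Genes whose pattern over the 9 mice was most like that of Alas2 were found by the root mean square difference of centred log2 CPM, in which 0 is an identical pattern. Among the 8 nearest were Hba-a1 (0.261), Hba-a2 (0.264), Hbb-bt (0.268), Cd300ld (0.286), Hbb-bs (0.286), Tent5c (0.289) and Apex2 (0.318). As the group was chosen for its values in KO1, which enter this measure, the places of the 4 adult globins restate that choice. Over the 8 mice without KO1 the difference from Alas2 was 0.276 to 0.303 for the adult globins and 0.380 for Mb. Cd300ld, a receptor of myeloid cells, had 1.19 CPM in KO1 and 0.346 to 0.585 in the others. Tent5c, a poly(A) polymerase, had 17.3 CPM in KO1 and 5.54 to 9.72 in the others. Apex2 had 16.3 CPM in KO1 and 6.62 to 9.94 in the others, and it is the gene that overlaps Alas2 on the opposite strand. The likeness to Hbb-y is not given, as Hbb-y had 17 counts in all.

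KO1 was at least 2-fold above every other mouse in 8 genes, or 0.0368% of those tested. Of these 5 belong to the group, which used these values (Alas2, Hbb-bt, Hbb-bs, Hba-a2 and Hba-a1), and 3 do not, Cd300ld among them. The same count was 71 in KO5, 74 in WT4, 29 in KO4 and 0 to 3 in the other 5 mice, so that KO1 was not the mouse with the most genes high in this way. Genes far below every other mouse were not counted.

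Among themselves the adult globins were closely tied also without KO1. Over the other 8 mice the root mean square difference was 0.010 between Hba-a1 and Hba-a2, whose shared stretches can tie them, and 0.089 between Hbb-bs and Hbb-bt. Between an alpha and a beta gene it was 0.064 to 0.094. Between Alas2 and an adult globin it was 0.276 to 0.303 without KO1, against 0.261 to 0.286 with it. Alas2 and Mb differed by 0.380 without KO1 and by 0.822 with it.

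The stretches before the start sites of the genes that moved together were compared, as the adult globins and Alas2 are both genes of the red cell. RefSeq start sites (GRCm38.p6) were at hand for 8 of the 9 genes; Hbb-bh1 had no entry. In the 150 bases before the start, 4 motifs were searched on both strands. They were GATAA, a short form of the site of GATA factors, CACCC, a short form of the site of KLF factors, CCAAT, the site of several general factors, and TATAA, the core of the TATA box. Of 32851 RefSeq promoters, 13.3% hold GATAA in this window, 37.4% hold CACCC, 24.5% hold CCAAT and 14.2% hold TATAA, and in the genes of the group no base belonged to 2 matches. All 4 adult globins held the CACCC, the CCAAT and the TATAA letters, and none held GATAA. Hbb-bt had 3 matches of CACCC and also 3 of CCAAT. Hba-x had all of these motifs but CCAAT, and Hbb-y had a CACCC and also a CCAAT match without the TATAA letters. Alas2 held GATAA once, on the opposite strand, and CACCC 3 times, without a match to the other two. None of the entries of Mb held GATAA or held TATAA. A match describes letters only, and these windows say nothing of which factor was bound.

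For an adult alpha, an adult beta and an embryonic beta globin and for Alas2, the longest part of this window outside annotated exons is shown, 5′ to 3′ on the strand of the gene, with the matches in capitals. The intervals are chr11:32296342-32296488 for Hba-a2 on the plus strand, chr7:103827929-103828011 for Hbb-bs on the minus strand, chr7:103853217-103853357 for Hbb-y on the minus strand and chrX:150547267-150547374 for Alas2 on the plus strand. The 147 bases of Hba-a2 are also found before Hba-a1 without a difference. The CACCC matches of Hbb-bs and Alas2 lie in parts that are not shown.
Hba-a2: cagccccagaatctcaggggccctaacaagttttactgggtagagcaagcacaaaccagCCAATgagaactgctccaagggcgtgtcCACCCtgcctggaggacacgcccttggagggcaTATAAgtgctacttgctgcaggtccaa
Hbb-bs: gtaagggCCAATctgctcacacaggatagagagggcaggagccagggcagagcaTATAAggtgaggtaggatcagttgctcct
Hbb-y: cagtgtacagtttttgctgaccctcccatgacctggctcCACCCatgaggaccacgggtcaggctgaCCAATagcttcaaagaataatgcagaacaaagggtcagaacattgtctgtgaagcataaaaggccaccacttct
Alas2: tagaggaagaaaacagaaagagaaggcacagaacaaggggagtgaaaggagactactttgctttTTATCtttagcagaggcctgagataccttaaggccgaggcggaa

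Myoglobin had another pattern over the mice than the red-cell genes. Mb (chr15:77015487-77050670, minus strand) had 12.99 CPM in KO1, 16.6 in KO2, 15.5 in KO3, 20.6 in KO4 and 33.5 in KO5. In WT1 to WT4 it had 18.8, 17.5, 15.9 and 16.6 CPM. KO4 and KO5 lay above all Shank3(+/+) mice and KO1 and KO3 below all of them, so the groups overlap. Its mean was 20.6 ± 11.2 CPM (SD, n = 3) over KO1, KO3 and KO5, and that of Shank3(+/+) mice was 17.2 ± 1.26 CPM (SD, n = 4). The log2 fold change was 0.25 (SE 0.28, edgeR p = 0.393), and the exact permutation p was 0.886. Without KO5 the log2 fold change was -0.28 (SE 0.14), and without KO1 it was 0.50 (SE 0.25). Mb shares 412 of its 1492 exon bases with Gm49540, an antisense gene, and reads from that stretch cannot be told apart.

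The 5 genes nearest to Mb by pattern were 9330162G02Rik (0.064), Gm2710 (0.145), Gm21596 (0.155), Gm49540 (0.155) and Zfp472 (0.156). KO5 was the highest mouse in each of them, as it was in 13.9% of all genes, and Gm49540 is the antisense gene above. The first is an unconfirmed transcript on chromosome 7, the next 2 are processed pseudogenes and Zfp472 encodes a zinc finger protein.

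Genes of muscle fibre types were read beside Mb. Of 13 slow and oxidative fibre genes, all tested, 3 were higher and 10 lower, and 3 of the lower ones had p below 0.05: Myl3 (log2 fold change -0.41), Tnnc1 (-0.43) and Tnnt1 (-0.34, edgeR adjusted p = 1.00 each, exact permutation p between 0.0571 and 0.114), all parts of the slow contractile apparatus. Over all genes 0.917% were lower, 1.16% higher and 2.08% either way at this p. Myl3, Tnnc1 and Tnnt1 each had their lowest value in KO5, the mouse with the most Mb. Myh7, the slow myosin heavy chain, had 335 CPM in KO5 and at least 484 in the others. Fabp3 and Cd36 of the same list went the other way. They were highest in KO5, at 212 and 439 CPM, with the other mice at most at 159 and 424 CPM. Of 10 fast fibre genes 7 were higher and 3 lower, and of these Pvalb (1.23), which encodes the calcium buffer parvalbumin, and Actn3 (0.62), an actinin of fast fibres, had p below 0.05 in edgeR (adjusted p = 1.00, exact permutation p = 0.114 and 0.143). Pvalb had 25.3 CPM in KO1, 47.7 in KO3 and 102.7 in KO5, and 15.6 to 32.8 CPM in Shank3(+/+) mice. Actn3 had 447 CPM in KO1, 415 in KO3 and 715 in KO5, and 218 to 460 CPM in Shank3(+/+) mice. The fast genes of highest CPM, Mylpf and Tnnt3, had log2 fold changes of 0.09 and 0.10, neither with p below 0.05. Of 8 genes known from heart, 5 were tested and all 5 were lower, of which Myh6 (-0.64) and Tnnt2 (-0.28) had p below 0.05 in edgeR (adjusted p = 1.00, exact permutation p = 0.0857 and 0.0286). Actc1 and Myl4, those of highest CPM, had -0.25 and -0.09. None of the 8 muscle identity markers had p below 0.05, with log2 fold changes of 0.04 for Acta1 and 0.11 for Myh8, the neonatal myosin heavy chain.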

How the data were processed

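RNA of gastrocnemius from 5 Shank3Δ11(-/-) and 4 Shank3(+/+) newborn mice was sequenced. The authors deposited raw counts per gene, made by aligning to mm10 with HISAT2, keeping concordantly mapped reads and counting with featureCounts; strandedness, annotation release and treatment of reads that map to several places: not given in the sources used here. From the deposited counts, CPM with TMM factors, TPM and edgeR 4.0.16 quasi-likelihood tests (limma 3.58.1 and DESeq2 1.42.0 as alternatives) were computed, with edgeR's filter (minimum count 10, total 15), a prior count of 2 for log2 CPM and p-values adjusted over all genes of a fit by the Benjamini-Hochberg method. TPM used the summed exon lengths of GENCODE M21. A separate list of gene names gave 55144 of 55471 IDs a symbol. Exact permutation tests were two-sided. Libraries of 26444372 to 40471957 counts limit genes of a few counts most. Genes are named by a rule: the group itself, other globins with at least 10 counts, the 2 genes of highest mean CPM of each list with up to 3 per direction at p below 0.05, and the genes most like Alas2 and Mb. Other list genes (Slc4a1, Klf1, Gata1, Nfe2, Ermap, Trim10, Tfrc, Epb41, Alas1, Hmox1, Flvcr1, Afp, Ltf, Lcn2, Fabp3 and Cd36) were named after their values were seen. The genes and lists were chosen with earlier results of these data known. One further listed gene and a few genes that the rule names are not reported here. Separate mice were the replicates. Alternatives tried: all 9 mice, no filter, other scalings and tools, a replicate block, a Y-linked covariate and leaving out each mouse.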

Additional observations from a re-analysis of the deposited data

Results flagged for a closer look

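A mouse was marked when its gap to the nearest mouse of its genotype, divided by the range of that genotype, passed Dixon's 95% critical value (0.71 for 5 mice, 0.829 for 4). The globins, Alas2 and the globin shares were not examined in this way among Shank3Δ11(-/-) mice, since the values of KO1 chose them. Chance marks about 1 in 20 groups, and 6 of the 42 examined were marked. The 6 include the fat cell markers, a list added after its values were seen, so chance is no measure of that mark.

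Among Shank3(+/+) mice, WT4 was high in Hbb-bt (349 CPM, others 255 to 270.0), and WT1 was high in the embryonic share of alpha-like counts (0.0453%, others at most 0.00904%) and low in Hbb-y (0 CPM, others 0.118 to 0.136). Liver markers were high in WT4 (78.6 CPM in sum, others at most 21.3) and in KO5 (76.7 CPM, others at most 34.0), the latter through Trf. Fat cell markers were high in KO5 (283 CPM in sum, other Shank3Δ11(-/-) mice at most 25.8), and this mark restates how the list was chosen.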

How the results depend on the processing

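Over 19 other settings the log2 fold change of Alas2 lay between 0.06 and 1.25, of Hbb-bs between 0.02 and 1.29, of Hba-a1 between 0.02 and 1.24, of Hba-a2 between 0.02 and 1.25, of Hbb-bt between -0.03 and 1.22 and of Mb between -0.29 and 0.50. Hbb-bt was reversed without KO1 (-0.028). Mb was reversed with a replicate block in 7 mice (-0.29) and in 9 mice (-0.083), without KO5 (-0.28) and with all mice but KO5 (-0.067). The share of all counts on globins was 0.889% in KO1, KO3 and KO5 and 0.499% in Shank3(+/+) mice per kb of exon, against 0.301% and 0.168% by counts, which follows from the shortness of globin transcripts. Without KO1 the first share by counts was 0.169%. Genes of the group with p below 0.05 numbered 1 without the filter (Hbb-bh1), 1 with a Y-linked covariate (Alas2), and 0 to 6 when 1 mouse was left out. Called genes numbered 1 without the filter, 6 in DESeq2 and 7 with all mice but KO1 (chosen after seeing the data, as were the fits without KO5 or WT4), and 0 to 15 when 1 mouse was left out. Genes with p below 0.05 numbered 453, 972 without the filter, 300 with all mice but KO5, and 224 to 968 when 1 mouse was left out. The cause of these changes was not tested.

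With the replicate number as a block, 7 mice gave 9 called genes, 844 with p below 0.05 and 1 of the group (Alas2), and 9 mice gave 2 called genes. The labels do not say that numbers pair mice; the correlations of same-numbered mice were 0.37, 0.05, 0.36 and 0.10. KO1, KO3 and KO4 correlated best with the Shank3(+/+) mouse of their own number and KO2 with WT1, a hint from the data. As the correlation of number 2 was the lowest and KO2 was closer to another mouse, the numbers were not taken as pairs.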
